A study of Mus musculus with 9 samples.

Results

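The MS4A genes studied here are 7 genes of a family of small proteins that cross the cell membrane several times. They were Ms4a4a, Ms4a4b, Ms4a4c, Ms4a6b, Ms4a6c, Ms4a6d and Ms4a7, chosen by symbol from the 25468 genes of the deposited table because earlier results of these data had shown that their levels differ with time after infarction. The table holds 9 bulk RNA-seq libraries of hearts from wild-type mice, in 3 groups of 3. The groups are 7 days after surgical myocardial infarction (MI), 1 day after MI, and sham operation. The labels give no strain, age or sex, no day of collection for the sham hearts, and no statement of whether a library is 1 animal or a pool. Hearts that lack Hdc, which encodes the enzyme that makes histamine, also belong to the study and were not analysed here.

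MS4A stands for membrane-spanning 4-domains subfamily A. The best known members of the family are CD20, the B cell antigen encoded by Ms4a1, and the beta chain of the high-affinity IgE receptor, encoded by Ms4a2. Most of the 7 genes described here are known from monocytes and macrophages, where MS4A proteins sit beside signalling receptors in the membrane. In human macrophages MS4A4A was found with the beta-glucan receptor Dectin-1, and variation at the human MS4A locus is linked to soluble TREM2 and to the risk of Alzheimer's disease. In mice Ms4a6d was described with Vsig4 as a brake on the NLRP3 inflammasome, Ms4a4b is best known from T cells, and Ms4a7 is widely used to mark macrophages that arose from recruited monocytes. After an infarction, neutrophils and monocytes enter the heart first, and monocytes then give rise to macrophages that clear dead tissue.

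The 7 genes lie together on chromosome 19. In the order along the chromosome they are Ms4a7, Ms4a4a, Ms4a4c, Ms4a4b, Ms4a6c, Ms4a6b and Ms4a6d, with the predicted gene Gm8369 between Ms4a6c and Ms4a6b and the family gene Ms4a4d between Ms4a6b and Ms4a6d. Ms4a7 and Ms4a6d are read from the minus strand and the other 5 from the plus strand. Several neighbours in this row are close copies of each other, and this shows in shared runs of bases in the promoters of 2 neighbouring pairs. These are Ms4a4c with Ms4a4b and Ms4a6c with Ms4a6b. Their sequences are printed because the levels of the first pair were unlike and those of the second pair alike, as the values show. The lines give RefSeq sequence of GRCm38.p6 from 250 bases before the start of transcription up to the last base before the first exon base annotated within that window, 5′ to 3′ on the plus strand. Capitals mark runs of 12 or more bases that the promoter shares with its partner.
Ms4a4c: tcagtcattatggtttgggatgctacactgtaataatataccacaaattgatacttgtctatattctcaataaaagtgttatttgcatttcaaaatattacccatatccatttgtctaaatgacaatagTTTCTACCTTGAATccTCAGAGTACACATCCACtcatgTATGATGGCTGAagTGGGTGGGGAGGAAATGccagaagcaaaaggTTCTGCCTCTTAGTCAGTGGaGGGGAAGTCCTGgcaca
Ms4a4b: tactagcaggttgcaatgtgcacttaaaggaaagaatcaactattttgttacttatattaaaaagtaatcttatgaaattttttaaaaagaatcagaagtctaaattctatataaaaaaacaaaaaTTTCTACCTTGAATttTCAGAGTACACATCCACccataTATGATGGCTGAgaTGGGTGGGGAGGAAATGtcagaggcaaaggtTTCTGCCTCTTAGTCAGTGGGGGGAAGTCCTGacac
Ms4a6c: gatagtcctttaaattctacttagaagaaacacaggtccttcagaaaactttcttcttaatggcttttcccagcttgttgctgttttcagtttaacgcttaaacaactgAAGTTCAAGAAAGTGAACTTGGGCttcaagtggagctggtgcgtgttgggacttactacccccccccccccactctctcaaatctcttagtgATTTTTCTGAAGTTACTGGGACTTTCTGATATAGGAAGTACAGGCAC
Ms4a6b: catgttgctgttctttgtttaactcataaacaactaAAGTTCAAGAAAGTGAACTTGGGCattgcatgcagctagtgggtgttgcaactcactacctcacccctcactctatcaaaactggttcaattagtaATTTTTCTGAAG
The stretches are chr19:11407411-11407660 for Ms4a4c, chr19:11443308-11443552 for Ms4a4b, chr19:11469118-11469365 for Ms4a6c and chr19:11518309-11518452 for Ms4a6b. None of the 4 overlaps an annotated exon. Those of Ms4a4c and Ms4a6b lie downstream of the first exon of another transcript of the same gene, which starts 2891 bases upstream for Ms4a4c and 2047 bases upstream for Ms4a6b in the GENCODE M21 annotation. Ms4a4c and Ms4a4b shared 6 runs, the longest of 20 bases, and 68.8% of the columns of a global alignment of the 250 bases before the start. The 2 runs nearest the start adjoin in Ms4a4b, so their capitals run together there, and stand apart in Ms4a4c. Ms4a6c and Ms4a6b shared 2 runs, of 24 and 48 bases, and 45.8% of alignment columns. The longer run goes on past the end of both printed stretches. Among the other promoter pairs of these genes no shared run was longer than 9 bases.

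Promoters of 6 of the 7 genes matched the RefSeq table. The letters GGAAGT, a core that ETS factors such as PU.1 bind, were searched on both strands of the 250 bases before the start. They stood in the promoters of 5 of the 6 genes (Ms4a7, Ms4a4c, Ms4a4b, Ms4a6c and Ms4a6b), against 19.7% of 32851 promoters of the same length. The match began 15 bases before the start in Ms4a7 and Ms4a4c, 16 in Ms4a6c and 19 in Ms4a4b. Ms4a6b had a match on the plus strand that began 85 bases and one on the minus strand that began 43 bases before the start, and both lie in the 106 bases that are exon in its transcript with the start further upstream. The match of Ms4a4c and Ms4a4b lies inside the shared run nearest the start, and that of Ms4a6c inside the longer run shared with Ms4a6b. The letters GAGGAA, which partly resemble a PU.1 site, stood in Ms4a4c and Ms4a4b, against 23.3% of all promoters. A repeat of the kind bound by interferon regulatory factors, a pair of GAAA with 2 bases of any kind between them, stood in 0 of the 6 genes and in 2.98% of all promoters. The C/EBP-type letters TTGCNNAA stood in 0 of the 6 and in 9.56% of all promoters, and the AP-1 letters TGANTCA in 1 of the 6, a second promoter of Ms4a7, and in 6.75% of all promoters. The same letters can occur without a factor bound to them, and no test was made of these matches.

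RNA of other tissues or cells stood out in several libraries. Day 1 replicate 2 had 780.2 FPKM and sham replicate 1 had 172 FPKM of Scgb1a1, a secreted protein of the airways, against at most 14.3 FPKM in the other 7 libraries. Myl7, a myosin light chain of the atria, ranged from 13.2 FPKM in sham replicate 2 to 2403 FPKM in day 1 replicate 1, with 928 FPKM in day 1 replicate 2 and 619 FPKM in sham replicate 1. Cfd, a gene of fat cells, reached 336 FPKM in sham replicate 1, against at most 60.5 FPKM elsewhere, and Actn3, of skeletal muscle, reached 11.01 FPKM in day 7 replicate 2, against at most 0.291 FPKM elsewhere. These 4 genes were picked after their values were seen. The summed level of 12 T cell markers was 167 FPKM in day 7 replicate 2 and 35.4 FPKM in day 1 replicate 2, against 4.32 to 9.02 FPKM in the other 7 libraries. FPKM are sequenced fragments scaled to transcript length and library size, so levels can be compared between genes per length. Library totals ranged from 521643 to 792632 FPKM, and the number of reads behind a value is unknown. Heart muscle markers were present in every library, with a summed level of 12547 to 22033 FPKM for 8 ventricular genes at day 7, 16155 to 19772 FPKM at day 1 and 30599 to 33447 FPKM in sham.

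Of the 7 genes, 6 had their highest mean at day 1, and Ms4a7 had its highest mean at day 7. The 7 genes together reached 102 ± 17.5 FPKM at day 7, 340 ± 107 FPKM at day 1 and 80.5 ± 34.5 FPKM in sham (SD, n = 3 each). Within the sham group replicate 2 had the lowest level of all 7 genes. All 7 passed the filter of a mean of 1 FPKM over the 9 libraries. These comparisons were used to choose the genes, so levels and fold changes of the 7 genes are descriptions without a test. In bulk hearts, fewer cells of a type and less RNA per cell cannot be told apart. Fold changes are differences in log2(FPKM + 1) with the standard error of a limma fit, and this scale understates the change of low genes.

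**Figure D1:**
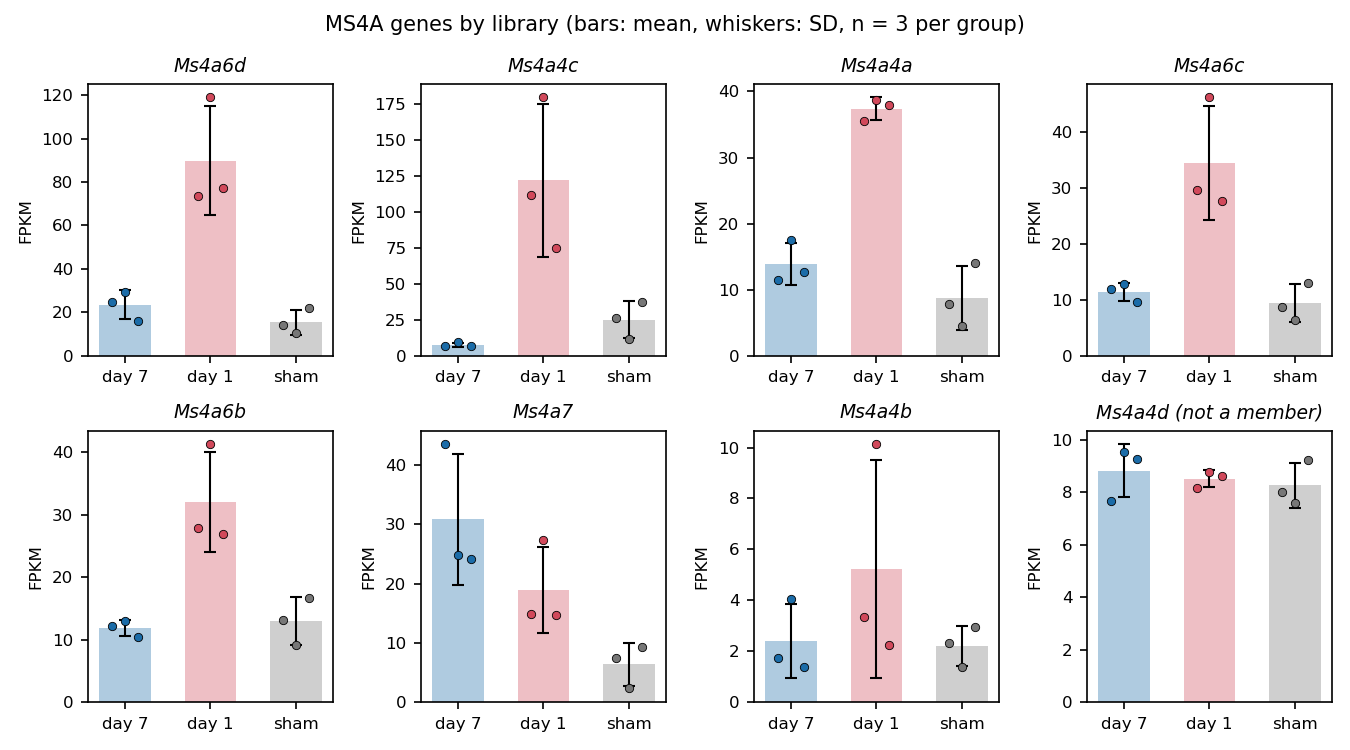
Level in FPKM (vertical axis from 0, each panel with its own scale) of the 7 MS4A genes and of the family gene Ms4a4d in the 3 day 7, 3 day 1 and 3 sham libraries. Points are single libraries, bars are means and whiskers are 1 SD. Ms4a4c reaches 75.0 to 180 FPKM at day 1 and stays under 10 FPKM at day 7, while Ms4a7 has its highest value, 43.5 FPKM, at day 7.

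Ms4a4c, a gene of inflammatory monocytes, showed the widest range. It had 6.98, 9.45 and 7.07 FPKM in the day 7 hearts, 112, 180 and 75.0 FPKM in the day 1 hearts and 26.3, 11.9 and 37.3 FPKM in the sham hearts. The groups did not overlap, and the day 7 hearts were lower than the sham hearts. The log2 fold change was 2.28 ± 0.41 for day 1 minus sham, -1.44 ± 0.41 for day 7 minus sham and -3.72 ± 0.41 for day 7 minus day 1 (SE). Of the 7 genes it was the only one whose day 7 values all lay below all sham values. The ratio of means put the day 7 level 15.6-fold below the day 1 level. The lowest sham value, 11.9 FPKM in replicate 2, was close to the highest day 7 value of 9.45 FPKM.

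Ms4a6d, described in mice as a partner of Vsig4, had 24.9, 29.5 and 16.2 FPKM at day 7, 73.5, 119 and 77.3 FPKM at day 1 and 14.2, 10.3 and 21.8 FPKM in sham. The day 1 hearts stood clear of both other groups, and day 7 overlapped sham. Its log2 fold change was 2.49 ± 0.31 for day 1 minus sham, the highest of the 7 genes in that comparison. It was 0.59 ± 0.31 for day 7 minus sham and -1.90 ± 0.31 for day 7 minus day 1.

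Ms4a4a, the mouse counterpart of the Dectin-1 partner, had 11.5, 17.5 and 12.6 FPKM at day 7, 35.5, 38.7 and 38.0 FPKM at day 1 and 7.85, 4.50 and 14.0 FPKM in sham. The day 1 values were close together (37.4 ± 1.70 FPKM, SD, n = 3) and clear of both other groups, and day 7 overlapped sham. The log2 fold change was 2.09 ± 0.31 for day 1 minus sham, 0.70 ± 0.31 for day 7 minus sham and -1.39 ± 0.31 for day 7 minus day 1.

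Ms4a6b and Ms4a6c, the neighbouring pair with the longer shared promoter run, had similar levels in each group. Ms4a6b had 12.2, 13.02 and 10.4 FPKM at day 7, 27.8, 41.3 and 27.0 FPKM at day 1 and 13.1, 9.15 and 16.7 FPKM in sham. Ms4a6c had 11.99, 12.8 and 9.73 FPKM at day 7, 29.7, 46.3 and 27.7 FPKM at day 1 and 8.83, 6.49 and 13.1 FPKM in sham. For both genes day 1 stood clear of the other groups, replicate 2 was the highest of day 1, and day 7 overlapped sham. For Ms4a6b the log2 fold change was 1.25 ± 0.22 for day 1 minus sham, -0.09 ± 0.22 for day 7 minus sham and -1.34 ± 0.22 for day 7 minus day 1. For Ms4a6c it was 1.77 ± 0.26 for day 1 minus sham, 0.30 ± 0.26 for day 7 minus sham and -1.48 ± 0.26 for day 7 minus day 1. The day 7 minus sham value of Ms4a6b changed sign with the scaling and was 0.25 with libraries rescaled to a common total.

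Ms4a7, the marker of macrophages from recruited monocytes, had 43.5, 24.8 and 24.2 FPKM at day 7, 14.9, 27.3 and 14.6 FPKM at day 1 and 7.55, 2.37 and 9.33 FPKM in sham. Both infarct groups stood clear of sham and overlapped each other, because day 1 replicate 2 lay above 2 of the day 7 hearts. The log2 fold change was 1.52 ± 0.43 for day 1 minus sham, 2.20 ± 0.43 for day 7 minus sham and 0.68 ± 0.43 for day 7 minus day 1. Of the 7 genes it alone had a higher mean at day 7 than at day 1.

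Ms4a4b, the family gene best known from T cells, had the lowest level of the 7 genes. It had 1.74, 4.07 and 1.41 FPKM at day 7, 3.35, 10.1 and 2.25 FPKM at day 1 and 2.34, 1.38 and 2.95 FPKM in sham. All 3 groups overlapped, and in both infarct groups replicate 2 was the highest. The log2 fold change was 0.78 ± 0.46 for day 1 minus sham, 0.03 ± 0.46 for day 7 minus sham and -0.74 ± 0.46 for day 7 minus day 1. Without day 1 replicate 2 the day 1 minus sham value was 0.25, and without day 7 replicate 2 the day 7 minus sham value was -0.30.

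**Figure D2:**
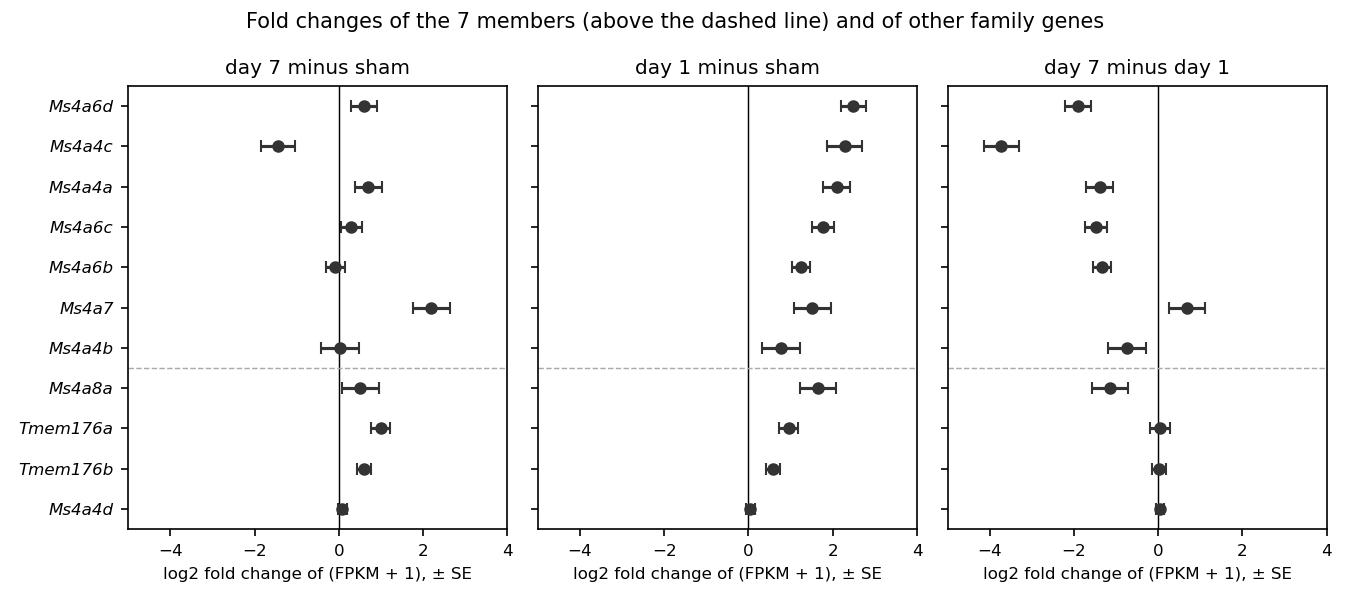
Log2 fold change on the log2(FPKM + 1) scale (horizontal axis) of the 7 MS4A genes (above the dashed line) and 4 other family genes in the 3 comparisons, with bars of 1 standard error of the limma fit. All 7 points above the dashed line are higher than 0 for day 1 minus sham, from 0.78 to 2.49, and for day 7 minus sham Ms4a7 lies at 2.20 and Ms4a4c at -1.44.

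Of the 7 genes, 6 were past the threshold of an adjusted p of 0.05 as higher and 0 as lower for day 1 minus sham, where 28.2% of the 13514 genes tested were past it, 13.4% as higher. Against sham at day 7, where 33.1% of all genes tested were past it (15.7% higher and 17.3% lower), 1 gene, Ms4a7, was past it as higher and 1, Ms4a4c, as lower. In the comparison of day 7 with day 1, where 4.85% were past it (2.71% higher and 2.14% lower), 0 were higher and 5 lower. The genes whose groups did not overlap were the same in number in each direction, beside 22.5% of all genes higher for day 1 minus sham, 25% higher and 28.8% lower for day 7 minus sham and 14.1% lower for day 7 minus day 1. The median log2 fold change of the 7 genes was 1.77 for day 1 minus sham, 0.30 for day 7 minus sham and -1.39 for day 7 minus day 1, against -0.01, -0.02 and -0.01 over all genes tested. The genes had been chosen on these comparisons, so nothing is read from these counts. The position of Ms4a4c past the threshold for day 7 minus sham was lost in 9 of 22 other settings, named with the processing alternatives.

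The values were computed again without the 2 libraries that carry the airway gene. With both left out, the log2 fold change for day 1 minus sham was 2.05 for Ms4a4a, 2.06 for Ms4a4c, 1.08 for Ms4a6b, 1.53 for Ms4a6c, 2.25 for Ms4a6d and 1.42 for Ms4a7, and 0.30 for Ms4a4b. The day 7 minus sham value was -1.34 for Ms4a4c and 2.38 for Ms4a7, and that for day 7 minus day 1 lay between -3.40 and -1.14 for the 5 genes that were lower there. Without day 1 replicate 1, the library with the most Myl7, the day 1 minus sham value was 2.13 for Ms4a4a, 0.93 for Ms4a4b, 2.30 for Ms4a4c, 1.34 for Ms4a6b, 1.86 for Ms4a6c, 2.62 for Ms4a6d and 1.65 for Ms4a7.

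The makeup of the MS4A RNA at day 7 was unlike that at day 1 and in sham. Ms4a7 made up 30.2 ± 8.13% of the summed FPKM of the 7 genes at day 7, 5.50 ± 0.449% at day 1 and 7.55 ± 2.19% in sham. Ms4a4c made up 7.79 ± 1.38% at day 7, 35.1 ± 5.61% at day 1 and 30.3 ± 3.91% in sham. Ms4a6d was a steadier part of the sum, with 22.8 ± 3.40% at day 7, 26.7 ± 2.50% at day 1 and 19.7 ± 2.42% in sham. The ratio of Ms4a7 to Ms4a4c was 2.63 to 6.23 at day 7, 0.133 to 0.195 at day 1 and 0.199 to 0.287 in sham. These 3 ranges did not overlap, and the day 1 ratio was the lowest although both genes were higher at day 1 than in sham. A ratio within a library does not depend on how libraries are scaled.

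**Figure D3:**
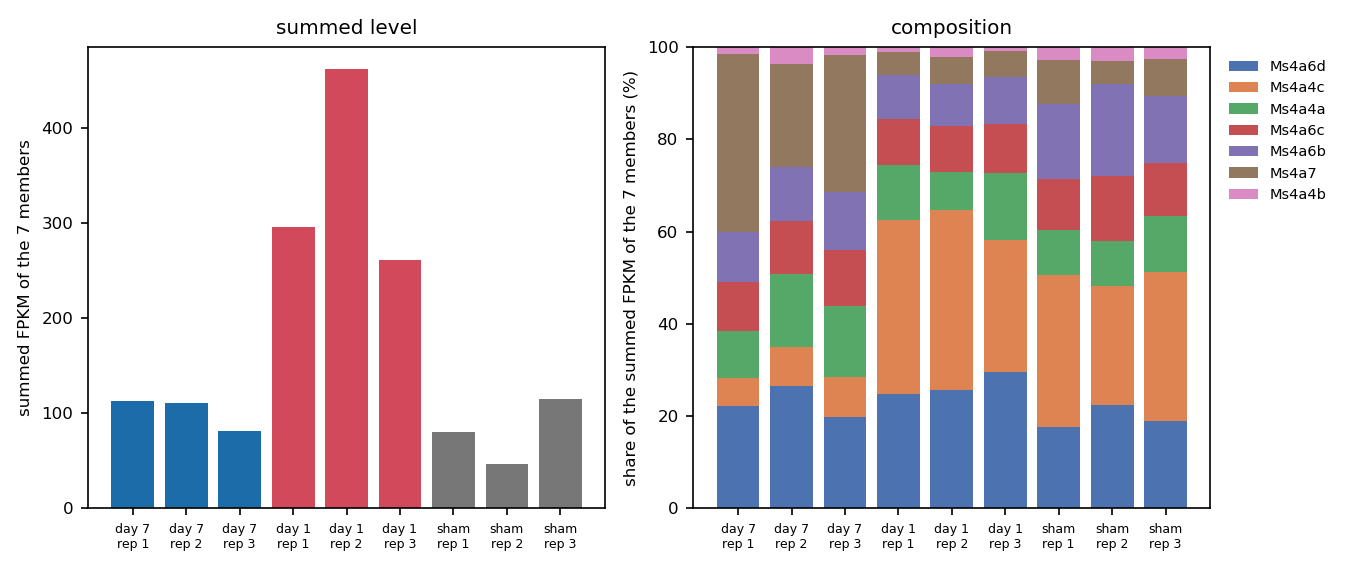
Summed FPKM of the 7 MS4A genes (left panel) and share of each gene in that sum (right panel, vertical axis in percent) in each of the 9 libraries. Ms4a7 averages 30.2% at day 7 and 5.50% at day 1, and Ms4a4c averages 7.79% at day 7 and 35.1% at day 1.

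Ms4a4b and Ms4a4c, which share 6 runs of promoter before the start, had unlike levels. In day 1 hearts Ms4a4c averaged 122 ± 53.2 FPKM and Ms4a4b 5.25 ± 4.28 FPKM. The root mean square difference of their centred log2 levels over the 9 libraries was 1.26, against 0.23 for Ms4a6b and Ms4a6c, the smallest of the 21 pairs of the 7 genes. Ms4a4c and Ms4a7 were the pair farthest apart, at 1.95. This difference also grows with a gene's own spread, whose SD over the libraries was 1.61 for Ms4a4c and 0.66 for Ms4a6b. The promoter printed for Ms4a4c belongs to a transcript that held 20.0% of the gene's FPKM at day 7, 24.0% at day 1 and 18.7% in sham. The main transcript, with 77.9%, 75.8% and 81.3%, is the one that starts 2891 bases further upstream, and its promoter is not shown. In Ms4a6b the main transcript starts at the end of the 250-base window.

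The shares of a gene's transcripts were also compared. The main transcript of Ms4a7 held 63.7 ± 3.77% of the gene's FPKM at day 7, 65.8 ± 4.43% at day 1 and 62.6 ± 11.7% in sham, and this transcript and the next most expressed one start at the promoter with the ETS letters near its start. The main transcript of Ms4a6b held 81.3 ± 4.37% at day 7, 74.1 ± 4.53% at day 1 and 71.9 ± 3.42% in sham. The day 7 values of this share overlapped those of day 1 and lay above those of sham, while the groups of Ms4a7 overlapped. Between 0% and 11.3% of the 50-base words of a gene's transcripts also occur in other genes, with 11.3% for Ms4a6c, 8.19% for Ms4a4c, 5.89% for Ms4a6b, 4.19% for Ms4a4b, 2.69% for Ms4a6d and 0% for Ms4a4a and Ms4a7. The copies shared most with each other, Ms4a4b with Ms4a4c and Ms4a6b with Ms4a6c, so a part of the reads of these 4 genes may have been split between them. Exons of Ms4a6c overlap 1088 exon bases of BE692007 on the opposite strand, and no source used here says whether reads were counted by strand, so reads of these genes cannot be told apart.

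Other genes of the family followed several patterns. Ms4a4d, which stands between Ms4a6b and Ms4a6d on the chromosome, had 7.66 to 9.53 FPKM at day 7, 8.16 to 8.77 FPKM at day 1 and 7.57 to 9.21 FPKM in sham. It did not pass the test in any comparison (limma adjusted p = 0.785 for day 1 minus sham, with a log2 fold change of 0.04 ± 0.10, and 0.545 for day 7 minus sham, with 0.08 ± 0.10). Ms4a8a, known in mice from some tumour-associated macrophages and in humans from ciliated airway cells, rose at day 1, with 3.34, 8.14 and 1.79 FPKM against 0.417, 0.358 and 0.852 FPKM in sham (log2 fold change 1.65 ± 0.43, limma adjusted p = 0.0235). Its highest value was in day 1 replicate 2, which also carries the airway gene, and the part of that library's airway RNA in the result was not tested. The call was lost in 5 of 21 other settings, and the gene passed the filter on low values only through its day 1 level. Tmem176a and Tmem176b, more distant relatives that are expressed in immature dendritic cells and macrophages, rose at both times. For Tmem176a the log2 fold change was 0.95 ± 0.23 for day 1 minus sham and 0.99 ± 0.23 for day 7 minus sham (limma adjusted p = 0.0186 and 0.0148). For Tmem176b it was 0.58 ± 0.17 and 0.61 ± 0.17 (limma adjusted p = 0.0330 and 0.0256). In 22 other settings the day 1 and day 7 calls were lost in 4 and 1 for Tmem176a and in 9 and 5 for Tmem176b.

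The remaining family genes were low. Ms4a14, next to Ms4a7 on the chromosome, had 1.02 to 1.88 FPKM at day 7, 0.751 to 1.50 FPKM at day 1 and 0.0705 to 0.293 FPKM in sham. It was under the filter on low values and was not tested, and both infarct groups stood clear of sham. Ms4a1 was at most 1.36 FPKM and Ms4a2 at most 0.118 FPKM in any library. Ms4a3, Ms4a10, Ms4a12 and Ms4a15 were above 0 in 1 library each, and Ms4a5, Ms4a13 and Ms4a18 were listed at 0 in all 9 libraries. Of the 4 further family genes tested (Ms4a4d, Ms4a8a, Tmem176a and Tmem176b), 3 rose for day 1 minus sham and 2 for day 7 minus sham, beside 13.4% and 15.7% of all genes. The filter on low values partly sets the count of 3, since Ms4a8a passed that filter only through day 1. Without sham replicate 1, sham replicate 2 or day 1 replicate 1 the first of these counts was 0. Without day 1 replicate 2 it was 1. The second was 0 without sham replicate 2 and 1 without sham replicate 1, day 7 replicate 1 or day 7 replicate 2. Over all genes, these fits called 968 to 1481 higher for day 1 minus sham, in place of 1817. They called 1124 to 1591 higher for day 7 minus sham, in place of 2127. None of the 4 passed the limma test for day 7 minus day 1, and 1 of them, Ms4a8a, had an unadjusted p under 0.05.

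Of 11 tested genes of described partners of MS4A proteins, 7 rose for day 1 minus sham, beside 13.4% of all genes. For day 7 minus sham 4 rose, beside 15.7%, and 2 fell for day 7 minus day 1, beside 2.14%. The filter on low values partly sets the counts of 7 and 2, since both hold Nlrp3, which passed it only through day 1. Tnfrsf18 passed it only through day 7 and was not called. The list's median log2 fold change was 0.97, 0.39 and 0.02 in these comparisons, against -0.02 to -0.01 over all genes. The count for day 7 minus sham was 1 without any one of sham replicates 1 and 2 and day 7 replicates 1 and 2, and the count for day 1 minus sham was 4 without day 1 replicate 2. For day 7 minus day 1 it was 0 without day 1 replicate 2 or day 7 replicate 3. It was 1 without any other single library but day 1 replicate 1. Over all genes, these fits called 968 higher for day 1 minus sham, in place of 1817. They called 1124 to 1591 higher for day 7 minus sham, in place of 2127. For day 7 minus day 1 they called 62 to 244 lower, in place of 289. Trem2, the lipid receptor whose soluble form is linked to the human MS4A locus, had 24.2, 22.6 and 15.9 FPKM at day 7, 11.4, 13.9 and 17.1 FPKM at day 1 and 5.66, 2.35 and 8.22 FPKM in sham. Its log2 fold change was 1.34 ± 0.34 for day 1 minus sham and 1.87 ± 0.34 for day 7 minus sham (limma adjusted p = 0.0215 and 0.00718), and its infarct groups overlapped, as those of Ms4a7 did. Tyrobp, the adaptor that carries the signal of Trem2, rose by 1.40 ± 0.26 at day 1 and 0.88 ± 0.26 at day 7 (limma adjusted p = 0.00744 and 0.0318), and its day 7 call was lost in 7 of 22 other settings. Vsig4, the complement receptor named with Ms4a6d, rose by 1.34 ± 0.43 at day 1 and 1.42 ± 0.43 at day 7 (limma adjusted p = 0.0452 and 0.0340), and the day 1 call was lost in 13 and the day 7 call in 7 of 21 other settings.

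Syk, the kinase that Dectin-1 uses, rose by 0.76 ± 0.08 for day 1 minus sham and 0.30 ± 0.08 for day 7 minus sham on the log2 scale, and fell by 0.46 for day 7 minus day 1 (SE 0.08, limma adjusted p = 0.00134, 0.0202 and 0.0203). Nlrp3, the inflammasome sensor, rose by 1.09 ± 0.27 for day 1 minus sham and fell by 1.16 for day 7 minus day 1 (SE 0.27, limma adjusted p = 0.0195 and 0.0465). Nlrp3 averaged 0.853 FPKM at day 7, 3.23 FPKM at day 1 and 0.932 FPKM in sham, so it passed the filter on low values only through day 1. The second of its calls was lost in 15 of 20 other settings, and that of Syk for day 7 minus day 1 in 7 of 22. Fcer1g, the common gamma chain of Fc receptors, rose by 1.55 ± 0.27 at day 1 (limma adjusted p = 0.00677), and Card9, the adaptor after Syk, by 0.97 ± 0.19 (limma adjusted p = 0.00922). At day 7 against sham their values were 0.61 and 0.46, with limma adjusted p = 0.119 and 0.0927. The MHC class II genes H2-Aa and H2-Ab1, Cd74, the invariant chain that goes with them, and Tnfrsf18, which encodes the GITR protein found with Ms4a4b on T cells, passed the limma test in none of the 3 comparisons, and of them H2-Aa alone had an unadjusted p under 0.05, for day 1 minus sham (0.0316). For day 1 minus sham, the log2 fold change was -0.90 for H2-Aa, -0.45 for H2-Ab1, -0.72 for Cd74 and 0.02 for Tnfrsf18. With both libraries that carry the airway gene left out, 1 of the 11 partner genes rose for day 1 minus sham and 1 for day 7 minus sham. Of the 13514 genes, 402 in place of 3810 then passed the day 1 test, 256 of them as higher. For day 7 minus sham 1078 were higher, in place of 2127.

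Markers of several blood cell types moved beside the MS4A genes. Of 10 tested classical monocyte genes, 8 rose for day 1 minus sham and 3 for day 7 minus sham, beside 13.4% and 15.7% of all genes. The largest day 1 rises among the 8 were those of Plac8 (log2 fold change 3.70 ± 0.77, limma adjusted p = 0.0108), Chil3 (2.76 ± 0.59, 0.0122) and Ccr2, the receptor that brings monocytes into tissue (2.70 ± 0.52, 0.00877). Hp, haptoglobin, had a log2 fold change of 3.32 ± 1.34 and did not pass (limma adjusted p = 0.0959). The day 1 values of Ly6c2, also on the list, overlapped sham, with 87.2 to 251 FPKM against 75.4 to 88.4 FPKM. The 3 that rose at day 7 were Fn1 (3.91 ± 0.28, limma adjusted p = 0.00048), Vcan (1.45 ± 0.24, 0.00579) and Cd14 (0.71 ± 0.16, 0.0136). Fn1 and Vcan are matrix genes that fibroblasts also make. The summed level of the monocyte list without Fn1, left out after the values were seen, was 193 to 323 FPKM at day 7, 338 to 919 FPKM at day 1 and 143 to 199 FPKM in sham. Day 1 replicate 2, the highest library of this sum, was also the highest of Ms4a4a, Ms4a4b, Ms4a4c, Ms4a6b, Ms4a6c and Ms4a6d. For Ms4a4a it was close to day 1 replicate 3, with 38.7 against 38.0 FPKM. This library also carries the airway gene, and the part of other tissue in these values was not tested.

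Of 12 macrophage genes, 6 rose for day 1 minus sham and 7 for day 7 minus sham, beside 13.4% and 15.7% of all genes. The first count was 3 without day 1 replicate 2. The second was 3 or 4 without sham replicate 1, sham replicate 2, day 7 replicate 1 or day 7 replicate 2. Over all genes, 968 were called higher in the first of these fits, in place of 1817. In the others 1124 to 1591 were called higher, in place of 2127. Fcgr1, the high-affinity IgG receptor, led at day 1 (log2 fold change 2.42 ± 0.34, limma adjusted p = 0.00346) and fell by 2.30 for day 7 minus day 1 (SE 0.34, limma adjusted p = 0.0142). Cd68, a lysosomal protein, rose by 1.83 ± 0.36 at day 1 and 1.09 ± 0.36 at day 7 (limma adjusted p = 0.00895 and 0.0450), and Mpeg1, a pore-forming protein of macrophages, by 1.58 ± 0.38 and 1.36 ± 0.38 (0.0178 and 0.0277). The day 7 calls of Cd68 and Mpeg1 were lost in 12 and 7 of 22 other settings. The summed level of the 12 macrophage genes was 1172 to 1473 FPKM at day 7, 864 to 1187 FPKM at day 1 and 526 to 905 FPKM in sham. Of 9 resident macrophage genes, 3 rose at day 1 (1 without sham replicate 2) and 1 at day 7, beside the same 13.4% and 15.7%, so that the day 7 count was near the share of all genes. Their summed level was 222 to 267 FPKM at day 7, 302 to 326 FPKM at day 1 and 130 to 189 FPKM in sham. With both libraries that carry the airway gene left out, 1 monocyte gene, 1 macrophage gene and 0 resident macrophage genes rose at day 1. Over all genes, 256 were then called higher, and 1000 without sham replicate 2, in place of 1817.

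Of the 10 neutrophil genes listed, 3 were under the filter on low values, and 3 more, Cxcr2, Mmp8 and Mmp9, passed it only through day 1. These 3 and the other 4 (S100a8, S100a9, Csf3r and Retnlg) rose for day 1 minus sham, a count of 7 that the filter partly sets (4 without sham replicate 2 or day 1 replicate 2, and 2 without both libraries that carry the airway gene). In limma 0 passed for day 7 minus sham, also at an unadjusted p under 0.05. For day 7 minus day 1, 4 fell, Cxcr2 and Mmp8 among them, beside 2.14% of all genes. This count was 2 without day 1 replicate 2, day 7 replicate 1 or day 7 replicate 3. Over all genes, 62 to 114 fell in these fits, in place of 289. Csf3r, the receptor of the growth factor G-CSF, rose by 2.33 ± 0.27 and Cxcr2, a chemokine receptor, by 2.39 ± 0.21 at day 1 (limma adjusted p = 0.00213 and 0.00103). The summed neutrophil level was 32.3 to 73.9 FPKM at day 7, 122 to 323 FPKM at day 1 and 48.7 to 69.8 FPKM in sham. T cell, natural killer cell and B cell genes passed the limma test in none of the comparisons, with 10, 4 and 1 genes tested, and 1 natural killer cell gene had an unadjusted p under 0.05, for day 7 minus day 1. Of 3 dendritic cell genes, 1, Zbtb46, fell for day 1 minus sham (-0.43 ± 0.14, limma adjusted p = 0.0431, lost in 11 of 22 other settings), beside 14.7% of all genes that fell. Of 6 mast cell genes tested 1, Kit, beside 15.7% of all genes, rose for day 7 minus sham (0.80 ± 0.19, limma adjusted p = 0.0161, lost without sham replicate 2 or day 7 replicate 1). Of 8 ventricular muscle genes, 4 fell for day 1 minus sham and 6 for day 7 minus sham, beside 14.7% and 17.3% of all genes, among them Pln, the regulator of the calcium pump (-1.23 ± 0.26 and -1.32 ± 0.26, limma adjusted p = 0.0112 and 0.00898). The first count was 1 or 2 without sham replicate 1 or 2 or day 1 replicate 1 or 2. The second was 1 to 3 without any one sham replicate or day 7 replicate 2. Over all genes, these fits called 790 to 1237 lower for day 1 minus sham, in place of 1993. They called 1042 to 1608 lower for day 7 minus sham, in place of 2341. The part of the number of each cell type in the MS4A values was not tested.

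**Figure D4:**
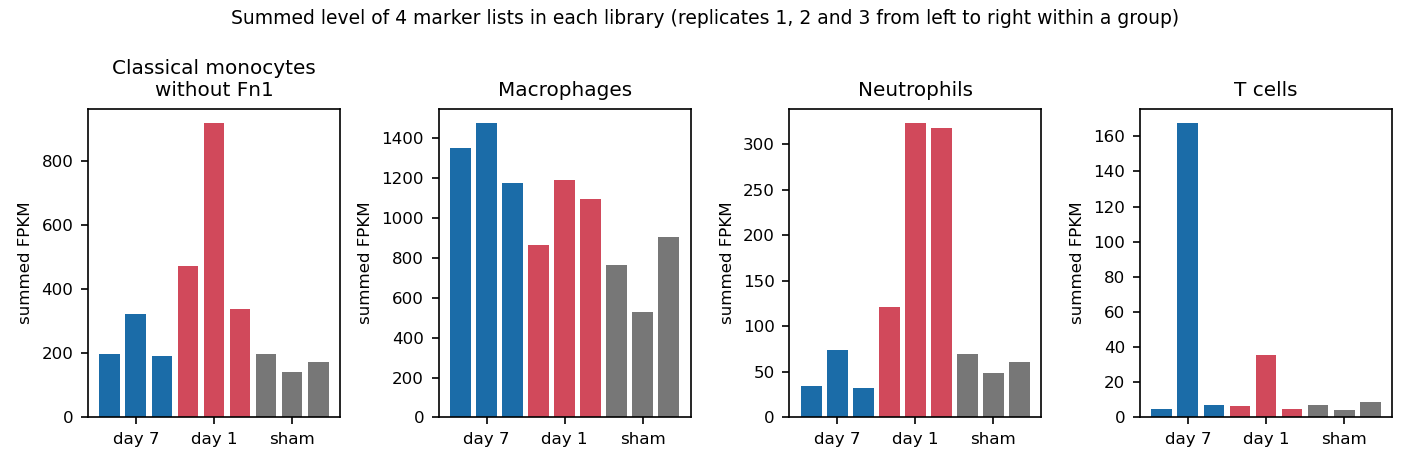
Summed FPKM (vertical axis, linear, each panel with its own scale) of the marker lists of classical monocytes without Fn1, macrophages, neutrophils and T cells in each of the 9 libraries, replicates 1, 2 and 3 from left to right. The monocyte and neutrophil sums are highest at day 1, and the T cell sum stands out in day 7 replicate 2 at 167 FPKM.

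Set against Csf1r, the growth factor receptor of monocytes and macrophages, 6 of the MS4A genes had the following ratios, given as a description. Csf1r had 39.8 to 49.4 FPKM at day 7, 33.0 to 34.4 FPKM at day 1 and 18.0 to 34.9 FPKM in sham. Per Csf1r, Ms4a4c stood at 0.141 to 0.201 at day 7, 2.18 to 5.44 at day 1 and 0.661 to 1.07 in sham. Per Csf1r, Ms4a4a stood at 0.232 to 0.373 at day 7, 1.07 to 1.17 at day 1 and 0.250 to 0.402 in sham. Ms4a6b per Csf1r was 0.247 to 0.277 at day 7, 0.783 to 1.25 at day 1 and 0.480 to 0.516 in sham. The day 7 range was thus below sham for Ms4a4c and Ms4a6b, and overlapped sham for Ms4a4a. Ms4a6c per Csf1r was 0.243 to 0.273 at day 7, 0.803 to 1.40 at day 1 and 0.348 to 0.376 in sham. This ratio too was below sham at day 7. In FPKM, day 7 overlapped sham for both Ms4a6b and Ms4a6c. Csf1r itself had its highest mean at day 7, 45.4 FPKM against 26.1 FPKM in sham. Ratios to other macrophage genes were not computed. Ms4a6d per Csf1r was 0.407 to 0.628 at day 7, 2.22 to 3.60 at day 1 and 0.561 to 0.626 in sham, with overlap of day 7 and sham. Ms4a7 per Csf1r was 0.529 to 0.880 at day 7, 0.425 to 0.824 at day 1 and 0.132 to 0.297 in sham, so that both infarct groups lay above sham and overlapped each other. Set against Ly6c2, a surface antigen of classical monocytes, Ms4a4c had ratios of 0.133 to 0.155 at day 7, 0.715 to 0.966 at day 1 and 0.146 to 0.494 in sham, so that day 1 again stood clear of the other groups. Ly6c2 itself had 44.9 to 61.0 FPKM at day 7, 87.2 to 251 FPKM at day 1 and 75.4 to 88.4 FPKM in sham. Its day 7 values thus lay below sham, and its day 1 values overlapped sham. Of the 10 monocyte genes, Ly6c2 among them, limma called 3 higher and 0 lower for day 7 minus sham, beside 15.7% and 17.3% of all genes. Ms4a4b per Cd3e, a chain of the T cell receptor complex, was 0.264 to 3.72 at day 7, 2.76 to 6.44 at day 1 and 2.83 to 5.48 in sham, and was lowest in day 7 replicate 2, where Cd3e reached 15.5 FPKM.

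The genes nearest to each MS4A gene over the 9 libraries were found by the root mean square difference of centred log2(FPKM + 1), among 11998 protein-coding genes with a mean of 1 FPKM or more. For 1 gene, a smaller value means a closer course. The values are not ranked between MS4A genes, since they grow with a gene's spread, and the libraries share the 3 groups. Nearest to Ms4a4a were Fgr, a kinase of myeloid cells (0.21), Cd53, a leukocyte tetraspanin (0.24), and Tgfbi, a secreted matrix protein (0.24). Fgr averaged 1.48 FPKM at day 7, 4.63 FPKM at day 1 and 0.610 FPKM in sham, low values whose change this scale understates. Nearest to Ms4a4c were Slfn1, a Schlafen family gene (0.48), and the chemokines Ccl7 (0.50) and Ccl12 (0.66). Ccl7 had 4.69, 8.20 and 3.93 FPKM at day 7, 49.3, 61.0 and 64.7 FPKM at day 1 and 9.39, 6.18 and 12.7 FPKM in sham, so its day 7 and sham hearts overlapped where those of Ms4a4c did not.

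Nearest to Ms4a6b were Sirpb1c (0.10), Sirpb1a (0.12) and Slfn2 (0.12). Sirpb1c averaged 0.625 FPKM at day 7, 2.61 FPKM at day 1 and 0.570 FPKM in sham, and Sirpb1a 0.778, 3.56 and 0.784 FPKM. Both thus passed the filter on low values only through day 1. Their closeness to Ms4a6b rests on a scale that understates the change of low genes, as does that of Sirpb1a to Ms4a6c. Sirpb1c and Sirpb1a are near-identical receptor genes whose reads may have been split between them. Ms4a6c came closest to Ctsc, the protease that activates granule enzymes (0.11), followed by Clec4a1, a lectin (0.17), and Sirpb1a (0.19). Nearest to Ms4a6d were Cd300lf, a receptor of myeloid cells (0.16), Csf3r (0.19) and Msr1, a scavenger receptor (0.24). Csf3r is one of the neutrophil markers. The MS4A gene nearest to Ms4a6d was Ms4a6c (0.32). Each of the 7 MS4A genes lay nearer to its 3 nearest genes than to any other MS4A gene. Those 3 were picked from 11998 genes, so nothing is read from this. Cd300lf averaged 1.55 FPKM at day 7, 7.47 FPKM at day 1 and 0.814 FPKM in sham, so the scale understates its change too.

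Ms4a7 lay nearest to Trem2 (0.35), Figf, which encodes the growth factor VEGF-D (0.37), and Igf1, insulin-like growth factor 1 (0.40). Igf1 had 39.5, 33.8 and 25.4 FPKM at day 7, 22.6, 21.8 and 11.6 FPKM at day 1 and 10.6, 5.11 and 8.49 FPKM in sham. No other MS4A gene came nearer to Ms4a7 than 0.97, the value for Ms4a4a. Ms4a4b lay nearest to Itgb7, an integrin subunit of lymphocytes (0.22), Unc13d, which prepares granules for release (0.27), and Hdc (0.28). Hdc had 1.74, 3.41 and 2.04 FPKM at day 7, 3.27, 6.14 and 2.12 FPKM at day 1 and 2.21, 1.92 and 2.24 FPKM in sham, with its highest value in day 1 replicate 2, as for Ms4a4b.

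**Figure D5:**
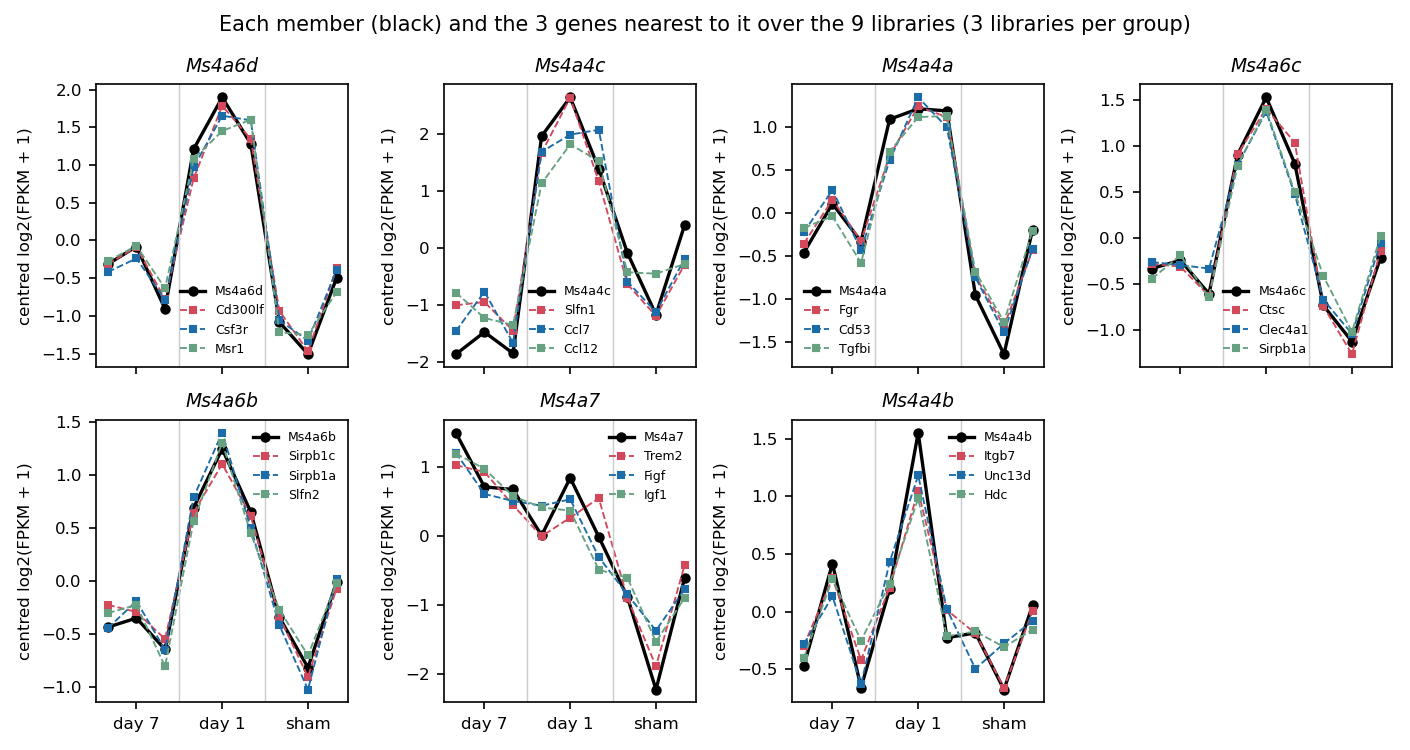
Centred log2(FPKM + 1) (vertical axis) of each MS4A gene and of the 3 protein-coding genes nearest to it in the 9 libraries, replicates 1, 2 and 3 from left to right in each group. Lines join libraries only to guide the eye. The distance, as root mean square difference on the log2 scale, is 0.10 between Ms4a6b and Sirpb1c and 0.48 between Ms4a4c and Slfn1, the nearest gene of each.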

How the data were processed

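Per the labels' protocols, RNA of the hearts was extracted with TRIzol. FastQC 0.11.9, HISAT2 2.1.0, HTSeq 0.11.2 and the build GRCm39 are named in the submitters' processing notes. The values deposited by the authors are FPKM per transcript, for 55361 transcripts of 25468 genes. Of the positive values, 11.8% were under 1e-06, which whole reads cannot give, so reads had been divided among transcripts and the depth is unknown.

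A gene's FPKM was the sum over its transcripts. Genes with a mean of 1 FPKM or more (13514) were fitted on log2(FPKM + 1) by limma 3.58.1 (R 4.3.3) with a variance trend and a mean for each group. All 9 libraries entered the fit. P-values were two-sided and adjusted by Benjamini-Hochberg over all genes tested, with 0.05 as the threshold. Exact permutation of 3 against 3 libraries allows no p below 0.1 and was not used. Whether the libraries of a group are separate animals is not stated, so p-values measure the spread between libraries, which may be technical. The procedure was tested on simulated data with independent noise in each gene and no outlying library, so that test does not cover such libraries.

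The 7 genes and all gene lists were chosen with earlier results of these data known. Named were the 7 genes, their family, all described partners, up to 3 called genes per marker list and comparison with the largest change, and the 3 nearest genes of each MS4A gene. Some of those called marker genes are given only in the counts. Scgb1a1, Myl7, Cfd, Actn3, Csf1r, Ly6c2, Cd3e, Hp and the tested neutrophil genes were named beyond this. GENCODE M21 and RefSeq, both of GRCm38, gave gene order, exon overlaps, transcript starts and promoters. The partner gene Clec7a, the family genes Ms4a19 and Ms4a20 and the B cell gene Ighm were not analysed here. Other settings were 0.1 as pseudocount, a minimum mean of 5 FPKM or none, other scalings, other limma options, a fit of 2 groups at a time, a block of replicate numbers, the most expressed transcript, each library left out and both libraries with the airway gene left out. The monocyte sum without Fn1 was added after seeing the data.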

Additional observations from a re-analysis of the deposited data

Results flagged for a closer look

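Ms4a4c moved in opposite directions from sham at the 2 times, with every library of each infarct group on its side of the sham range. The log2 fold change was -1.44 for day 7 minus sham and 2.28 for day 1 minus sham, and the difference between the days was not tested, since the gene had been chosen on it. Among genes of the partner and marker lists, limma called a difference between the days for 9 that are named. The log2 fold change for day 7 minus day 1 was -2.72 for Chil3, -2.30 for Fcgr1 and -1.79 for Pf4, a chemokine of platelets and some macrophages. Among neutrophil genes it was -2.54 for S100a9, -2.40 for Cxcr2 and -1.89 for Csf3r. The partner genes Nlrp3 and Syk had -1.16 and -0.46. Nlrp3 and Cxcr2 passed the filter on low values only through day 1. The call was lost in 15 of 20 other settings for Nlrp3, and of 22 in 13 for Chil3, 7 for Syk, 6 for S100a9 and 5 for Pf4. Fn1, fibronectin, was the only one of the 9 that was higher at day 7, with 1.77, and averaged 421 ± 169 FPKM at day 7, 118 ± 18.9 FPKM at day 1 and 26.3 ± 6.57 FPKM in sham (SD, n = 3 each). Groups of 3 libraries are too small for the check for single outlying samples.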

How the results depend on the processing

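Each of the 21 log2 fold changes of the 7 MS4A genes stayed within the spread between libraries under the settings run (21 or 22 each). Only the day 7 minus sham values of Ms4a4b (-0.30 to 0.30) and Ms4a6b (-0.30 to 0.25) changed sign. Rescaling to a common total moved the median log2 fold change of all genes by 0.24 for day 1 minus sham and 0.31 for day 7 minus sham, and higher calls then made up 80.3% in place of 47.7% and 87.8% in place of 47.6% of all calls. Without mitochondrially encoded genes both shifts were 0.21, and the shares were 80.2% and 78.7%. In all, 3810 genes were called for day 1 minus sham, 1758 to 4256 with 1 library left out and 402 without both libraries that carry the airway gene. At day 7 against sham 4468 were called, 2166 to 4894 with 1 left out and 2125 without both. Between day 7 and day 1 655 were called, 137 to 501 with 1 left out, 60 without both, 185 with the common total and 166 with only the 2 groups fitted. Of the 7 MS4A genes, the 6 higher for day 1 minus sham became 2 without both libraries. The 1 higher for day 7 minus sham became 2 with the common total, and 1 to 2 with 1 library left out (2 without sham replicate 3). The 1 lower there, Ms4a4c, became 0 with no filter, with the common total, with that total without mitochondrial genes, without both libraries, and without sham replicate 1 or 3 or day 7 replicate 1 or 3 (0 to 1 with 1 left out). The 5 lower for day 7 minus day 1 became 2 with the common total, 1 without both libraries and 1 to 5 with 1 left out (1 without day 1 replicate 2 or day 7 replicate 3, 3 without day 7 replicate 1). Pairing by replicate number was checked once, and deviations of same-numbered libraries correlated at -0.370 to 0.269. Differently numbered libraries were not compared, so this check cannot decide whether the numbers pair the libraries. With the replicate block 237 genes were called for day 7 minus day 1, and of the MS4A genes 0 were lower for day 7 minus sham and 1 for day 7 minus day 1. The cause of these changes was not tested, beyond fewer libraries in the fits that leave some out. The depth of the libraries is unknown, so no limit from counting can be given for Ms4a4b or other low genes.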
